A study of Mus musculus with 9 samples.

Results

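Genes of extracellular matrix turnover were followed through knockdown of Chd8 or Tsc2 in primary mouse microglia. These 10 genes, of 54119 in the annotation used, were 5 proteases (Mmp9, Mmp12, Mmp13, Mmp14 and Adam17), 3 protease inhibitors (Timp1, Timp2 and A2m) and 2 further matrix genes (Cemip and Col18a1). They were picked by name. A2m and Cemip were picked because their values were lower in both knockdowns, and Col18a1 because its values were lower after Tsc2 siRNA, so those 5 comparisons are descriptions, and no count that includes them is support for a change. The other 7 genes were not picked on a measured value. All 10 passed the filter on low counts, as did 16229 genes in all.

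The study compared 3 groups of 3 RNA-seq libraries, from microglia treated with control siRNA, Chd8 siRNA or Tsc2 siRNA. CHD8 is a chromatin remodeler and TSC2 an inhibitor of mTOR signalling. The microglia were shaken off mixed glial cultures of embryonic C57BL/6J mouse brain, and RNA was taken 3 days after siRNA. The methods describe each biological replicate as a culture from a different brain, and the numbers 1 to 3 in the labels recur in every group. The results text of the study adds a treatment of these cells with lipopolysaccharide, which the sample labels do not name. Each siRNA was one commercial reagent per gene, so effects of a reagent and of its target cannot be told apart.

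Matrix metalloproteinases are zinc enzymes that are secreted or held at the cell surface and cut collagens, elastin and signalling proteins. ADAM17 sheds membrane proteins such as the precursor of tumour necrosis factor, TIMPs block metalloproteinases by binding their active site, and alpha-2-macroglobulin traps proteases of all classes. Microglia, the macrophages of the brain, use such enzymes to move through tissue, release cytokines and remodel the matrix around neurons and vessels.

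The libraries held 16913005 to 33213477 counts, and 3 counts stood for 0.0903 to 0.177 CPM, which are counts scaled to a library of 1000000. Chd8 was 117.9, 97.5 and 93.6 CPM in the control libraries and 86.8, 44.6 and 38.2 CPM after Chd8 siRNA, and Tsc2 was 40.8, 39.9 and 38.9 CPM in the control libraries and 24.6, 30.6 and 36.4 CPM after Tsc2 siRNA. Both targets were lower than control in every library of their group, but the Chd8 library 1 and the Tsc2 library 3 lay close to control. With the library number as a block in the fit, Chd8 passed after Chd8 siRNA (log2 fold change -0.93, adjusted p = 0.00781, edgeR). That call was kept in 3 of 6 blocked fits that left out 1 library. With the block, Tsc2 did not pass after Tsc2 siRNA (-0.39, adjusted p = 0.219, edgeR). Without the block, neither target passed. Libraries of the same number resembled each other across siRNAs. The microglial markers Itgam, Aif1, Csf1r, C1qa, Trem2 and Spi1 were abundant in all 9 libraries, whereas Tmem119 was at 1.11 CPM or less and P2ry12 at 2.78 CPM or less. In bulk RNA, fewer cells of a type and less RNA per cell cannot be told apart.

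Mmp13 (chr9:7272514-7283331, plus strand), a collagenase, was by far the most abundant of the 10 genes per length. Gene positions are those of GENCODE M21 on GRCm38. Its level was 6009, 8300 and 8420 CPM in control libraries 1 to 3, 5746, 6078 and 7129 CPM in Chd8 siRNA-treated microglia, and 5714, 7217 and 7540 CPM in Tsc2 siRNA-treated microglia. Both knockdowns were below control at every replicate number, but the groups overlapped. The log2 fold change was -0.26 (SE 0.17) for Chd8 siRNA and -0.15 (SE 0.17) for Tsc2 siRNA, with adjusted p-values of 1.00 in both (edgeR quasi-likelihood test). With the replicate number as a block, the SE fell to 0.06 in each comparison and the adjusted p-values were 0.0733 and 0.406 (edgeR). The Mmp13 difference therefore did not pass in either fit.

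Mmp12 (chr9:7344381-7369499, plus strand), the macrophage elastase, was the one of the 7 genes not picked on a measured value that passed against control, in the blocked fit alone of the edgeR fits. Its level was 85.6, 354 and 357 CPM in control libraries 1 to 3, 66.7, 250 and 318 CPM after Chd8 siRNA, and 68.7, 217 and 191 CPM after Tsc2 siRNA. Libraries numbered 1 were low in every group, and at each number both knockdowns were lower than control. Without the block, the SE was large: the log2 fold change was -0.33 (SE 0.65) for Chd8 siRNA and -0.74 (SE 0.65) for Tsc2 siRNA, with adjusted p-values of 1.00 (edgeR). With the block, Mmp12 was lower after Tsc2 siRNA by a log2 fold change of -0.64 (SE 0.11, adjusted p = 0.0169, edgeR), which is 0.642 of the control level.

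The Mmp12 call was kept when control library 1 or Tsc2 library 1 was left out, and was lost without control library 2 (adjusted p = 0.138), control library 3 (0.150), Tsc2 library 2 (0.138) or Tsc2 library 3 (0.118, edgeR with the block), while the log2 fold change stayed between -0.80 and -0.47. After Chd8 siRNA the blocked log2 fold change of Mmp12 was -0.34 (SE 0.11, adjusted p = 0.188, edgeR). The difference in Mmp12 between the knockdowns was 0.30 (SE 0.11, adjusted p = 0.333, edgeR with the block), so a stronger decrease after Tsc2 siRNA was not shown. Two-sided exact permutation tests of the unpaired groups gave p = 0.5 in each knockdown, where the smallest p that 3 libraries against 3 allow is 0.1.

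Mmp12 and Mmp13 lie on the same chromosome, and their promoters are shown with those of Cemip and Col18a1, the picked genes that had an entry in the promoter table. The windows are the 250 bases before the RefSeq start (GRCm38.p6), and capitals mark matches to an AP-1 or PU.1 motif.
Mmp13 promoter, chr9:7272264-7272513, plus strand: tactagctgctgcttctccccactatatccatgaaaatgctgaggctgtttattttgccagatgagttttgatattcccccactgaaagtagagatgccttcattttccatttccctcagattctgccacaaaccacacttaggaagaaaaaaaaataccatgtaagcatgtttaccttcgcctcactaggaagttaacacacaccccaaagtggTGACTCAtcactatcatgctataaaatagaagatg
Mmp12 promoter of the upstream start, chr9:7344147-7344396, plus strand: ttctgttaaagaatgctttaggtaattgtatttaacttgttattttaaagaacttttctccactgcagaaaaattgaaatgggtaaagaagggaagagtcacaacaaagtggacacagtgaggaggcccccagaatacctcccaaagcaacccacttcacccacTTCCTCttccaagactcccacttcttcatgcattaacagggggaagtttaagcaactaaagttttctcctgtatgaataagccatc
Mmp12 promoter of the downstream start, chr9:7347124-7347373, plus strand: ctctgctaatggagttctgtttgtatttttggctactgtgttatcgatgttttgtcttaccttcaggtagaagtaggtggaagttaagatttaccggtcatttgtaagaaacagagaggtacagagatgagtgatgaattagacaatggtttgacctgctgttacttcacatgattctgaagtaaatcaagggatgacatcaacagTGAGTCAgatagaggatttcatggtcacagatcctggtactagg
Cemip promoter, chr7:84086506-84086755, minus strand: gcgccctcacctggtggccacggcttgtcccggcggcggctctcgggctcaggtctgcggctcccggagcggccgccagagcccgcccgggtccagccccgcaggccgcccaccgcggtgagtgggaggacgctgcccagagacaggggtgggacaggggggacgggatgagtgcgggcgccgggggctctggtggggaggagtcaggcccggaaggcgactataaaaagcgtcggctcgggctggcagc
Col18a1 promoter of the upstream start, chr10:77166531-77166780, minus strand: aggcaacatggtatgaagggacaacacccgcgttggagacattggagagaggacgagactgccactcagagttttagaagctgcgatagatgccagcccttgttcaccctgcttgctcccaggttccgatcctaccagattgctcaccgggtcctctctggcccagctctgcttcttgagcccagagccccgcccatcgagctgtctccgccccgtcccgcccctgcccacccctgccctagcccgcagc

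These windows differed in the motifs they held. The AP-1 motif TGANTCA was present once in the Mmp13 window, 35 to 29 bases before the start, and once in the Mmp12 window of the downstream start, 44 to 38 bases before the start. It occurred on either strand in 6.75% of 32851 promoter windows of the same length. The upstream Mmp12 window had no AP-1 match, but held the PU.1 motif GAGGAA on the opposite strand, 86 to 81 bases before the start; that motif occurred in 23.3% of windows. The STAT motif TTCNNNGAA (7.02% of windows), an NF-kB motif (1.41%) and the E-box CACGTG (6.02%) matched none of the 10 windows of the 8 genes that had an entry, Cemip and Col18a1 included. None of these motifs overlaps another in the matches given. A match is only a match of letters.

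Both Mmp12 starts were in use. Transcripts assigned to the upstream RefSeq start, 9:7344397, held 50.7% of Mmp12 counts over all libraries and those of the downstream start, 9:7347374, held 49.3%. The upstream share was 52.2% ± 1.69 in control, 50.8% ± 2.39 after Chd8 siRNA and 50.0% ± 0.348 after Tsc2 siRNA (SD, n = 3), and ranged from 48.5% to 54.1% over the 9 libraries. The lower level after Tsc2 siRNA was thus spread over transcripts of both starts. The shares are estimates by salmon from reads that largely fit several transcripts. Mmp1b, on the opposite strand, shares 157 exon bases with Mmp12 but had 2 counts in all against 42430 for Mmp12.

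Mmp9 (chr2:164940780-164955850, plus strand), the gelatinase B gene, was the only one of the 10 genes with a positive log2 fold change after Chd8 siRNA and a negative one after Tsc2 siRNA of more than 0.4 each. Its level was 16.3, 18.0 and 16.2 CPM in control libraries, 14.9, 23.2 and 42.5 CPM after Chd8 siRNA, and 11.4, 9.18 and 15.8 CPM after Tsc2 siRNA. All Tsc2 libraries were below all control libraries, whereas Chd8 library 3 stood far above the rest and Chd8 library 1 was below control. Against control, Chd8 siRNA gave a log2 fold change of 0.67 (SE 0.34) and Tsc2 siRNA one of -0.47 (SE 0.34), with adjusted p-values of 1.00 (edgeR), and 0.301 and 0.432 with the block. The exact permutation p was 0.1 for Tsc2 siRNA, the smallest this design allows. Genes whose Tsc2 libraries were all below control made up 4.25% of all genes tested.

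Between the knockdowns, Mmp9 was higher with Chd8 siRNA at every replicate number, by 2.21-fold (adjusted p = 1.00, edgeR) and by a log2 difference of 1.08 with the block (SE 0.23, adjusted p = 0.0633). The difference did not pass in either edgeR fit. It passed in DESeq2 with the block, and in the blocked edgeR fit when Chd8 library 1 (adjusted p = 0.00970) or Tsc2 library 1 (0.0318) was left out. Without Chd8 library 3 it dropped to 0.72 (adjusted p = 0.577).

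Mmp14 (chr14:54431612-54445364, plus strand), the membrane-bound metalloproteinase that activates pro-MMP2, varied with the replicate number and little with siRNA. Its level was 369, 258 and 180 CPM in control libraries, 413, 233 and 181 CPM after Chd8 siRNA, and 417, 286 and 237 CPM after Tsc2 siRNA. Number 1 was the highest in each group, whereas it was the lowest in each group for Mmp12. Tsc2 libraries were above control at every number, by a blocked log2 fold change of 0.24 (SE 0.08, adjusted p = 0.269, edgeR). For Chd8 siRNA the blocked value was 0.01 (SE 0.08, adjusted p = 0.979).

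Adam17 (chr12:21323509-21373632, minus strand), the sheddase, was at 177, 253 and 205 CPM in control libraries, 173, 202 and 194 CPM after Chd8 siRNA, and 155, 232 and 203 CPM after Tsc2 siRNA. All values of both knockdowns were slightly below control at the same number, and the groups overlapped. The blocked log2 fold changes of Adam17 were -0.14 (SE 0.08, adjusted p = 0.50) and -0.11 (SE 0.08, adjusted p = 0.709, edgeR). Iah1, on the opposite strand, shares 311 exon bases with Adam17 and held 954 counts against 41834 for Adam17.

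**Figure D1:**
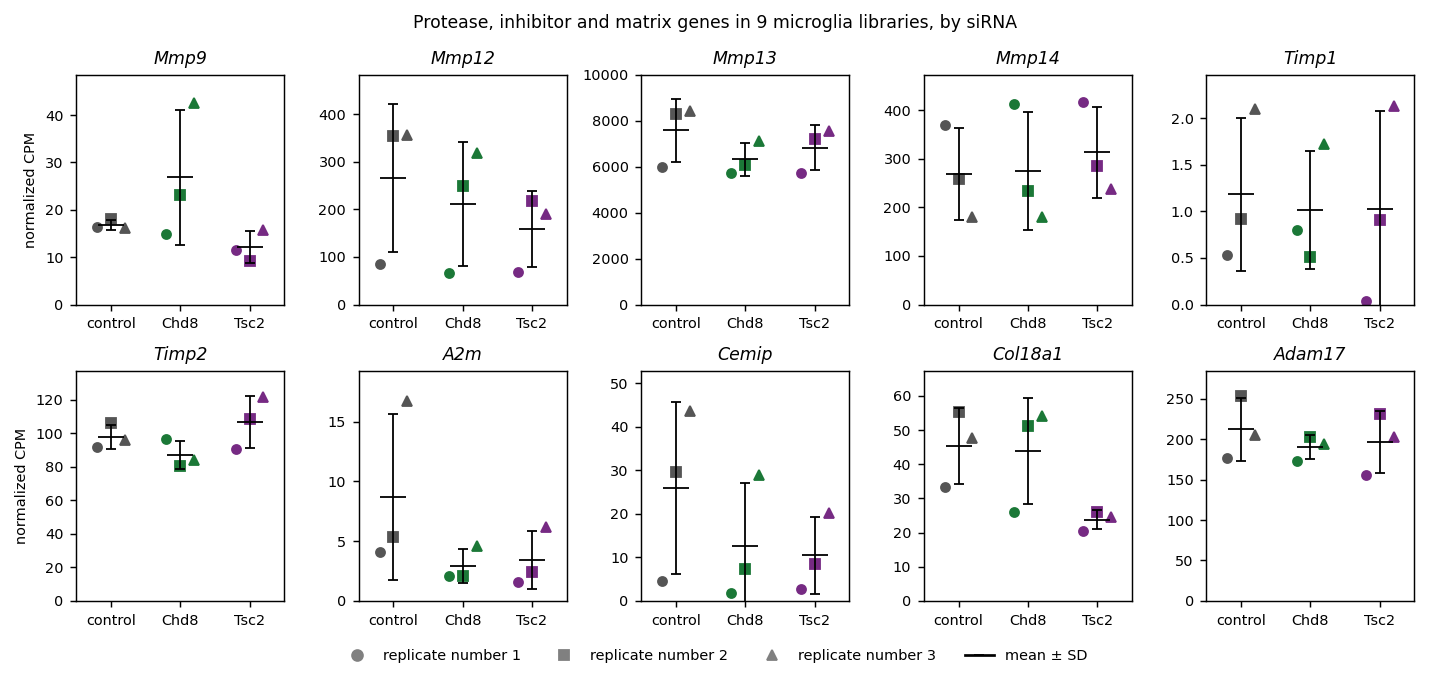
Normalized CPM (linear axis from 0) of the 10 genes in each library, grouped by siRNA; symbols give the replicate number and black bars the mean ± SD of 3 libraries, cut at 0. Mmp12 and Cemip are lowest in libraries numbered 1 of each group, and the 3 Tsc2 libraries of Col18a1, 20.6 to 25.9 CPM, lie below all control libraries.

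Among the inhibitors, Timp2 (chr11:118301069-118355740, minus strand), a soluble inhibitor that also takes part in pro-MMP2 activation at MMP14, was the most abundant. Its level was 91.9, 106 and 96.0 CPM in control libraries, 96.6, 80.6 and 84.0 CPM after Chd8 siRNA, and 90.6, 108 and 122 CPM after Tsc2 siRNA. The groups overlapped, and numbers 2 and 3 were lower than control after Chd8 siRNA and higher after Tsc2 siRNA. The log2 fold changes of Timp2 were -0.17 (SE 0.14) and 0.13 (SE 0.14), with adjusted p-values of 1.00 (edgeR), and 0.586 and 0.783 with the block.

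Timp1 (chrX:20870166-20874735, plus strand), the inducible inhibitor, was close to the limit of counting, with 244 counts over all 9 libraries. Its level was 0.53, 0.92 and 2.10 CPM in control libraries, 0.80, 0.51 and 1.73 CPM after Chd8 siRNA, and 0.04 (1 count), 0.90 and 2.14 CPM after Tsc2 siRNA. The groups overlapped entirely. The log2 fold changes were -0.21 (SE 0.98) and -0.19 (SE 0.98). A 1.5-fold change is a log2 fold change of 0.585, which is less than these SEs and than the blocked SEs of 0.71 and 0.69. Such a change could thus not be told from none here.

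A2m (chr6:121635376-121679227, plus strand), which encodes alpha-2-macroglobulin, was picked for its lower values in both knockdowns. Its level was 4.11, 5.36 and 16.7 CPM in control libraries, 2.11, 2.10 and 4.57 CPM after Chd8 siRNA, and 1.58, 2.46 and 6.15 CPM after Tsc2 siRNA. At every number both knockdowns were below control, by a ratio of 0.513, 0.393 and 0.274 after Chd8 siRNA and of 0.384, 0.459 and 0.368 after Tsc2 siRNA, yet the groups overlapped, since library 3 of each knockdown was above control library 1 and Tsc2 library 3 was also above control library 2. The blocked log2 fold changes were -1.40 (SE 0.26) and -1.31 (SE 0.25). Without all libraries numbered 3 they were -1.12 and -1.22. The blocked difference in A2m between the knockdowns was -0.09 (SE 0.26). Low values in both knockdowns picked A2m, so this is a description and not a test. Between 33 and 389 counts lay behind each A2m value.

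Cemip (chr7:83932857-84086502, minus strand), which encodes a protein that binds hyaluronan and is needed for its breakdown, was likewise picked for lower values in both knockdowns. Its level was 4.68, 29.6 and 43.6 CPM in control libraries, 1.77, 7.27 and 29.0 CPM after Chd8 siRNA, and 2.78, 8.47 and 20.2 CPM after Tsc2 siRNA. Every knockdown library was lower than the control library of its number, but the numbers differed by far more than the siRNAs and the groups overlapped. The ratio to control was lowest at number 2, where it was 0.246 after Chd8 siRNA and 0.287 after Tsc2 siRNA. The log2 fold changes were -1.03 (SE 1.02) and -1.30 (SE 1.02) without the block and -1.27 (SE 0.24) and -1.29 (SE 0.24) with it. Between Chd8 and Tsc2 siRNA the blocked difference in Cemip was 0.02 (SE 0.25), again a description, since low values in both knockdowns picked Cemip.

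Col18a1 (chr10:77052178-77166548, minus strand), the collagen XVIII gene, whose product is a basement membrane heparan sulfate proteoglycan and the source of endostatin, was picked for its decrease after Tsc2 siRNA. Its level was 33.4, 55.2 and 47.6 CPM in control libraries, 25.9, 51.2 and 54.1 CPM after Chd8 siRNA, and 20.6, 25.9 and 24.6 CPM after Tsc2 siRNA. The Tsc2 libraries lay below all control libraries, and the Chd8 libraries overlapped control. The blocked log2 fold change was -0.91 (SE 0.14) for Tsc2 siRNA. For Chd8 siRNA, a comparison that did not pick Col18a1, the blocked log2 fold change was -0.08 (SE 0.14, adjusted p = 0.858, edgeR). Transcript Col18a1-202 was assigned to the upstream RefSeq start whose promoter is shown above, and its own annotated start, 10:77166548, lies inside that window. It held 96.7% of Col18a1 counts and 92.1% to 100% of them in single libraries.

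**Figure D2:**
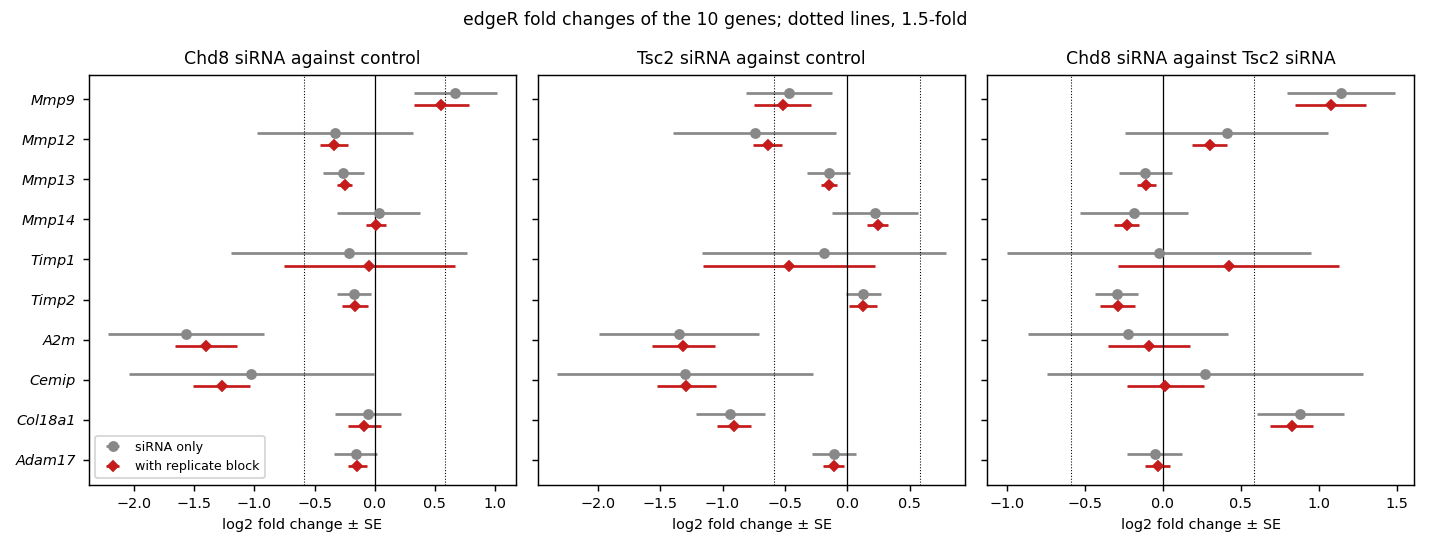
Log2 fold change ± SE of the 10 genes in 3 comparisons, from edgeR fits with siRNA only (grey circles) and with the replicate number added as a block (red diamonds); dotted lines mark a 1.5-fold change. The block shortens the bars of Mmp12, from an SE of 0.65 to 0.11 after Tsc2 siRNA, and of Cemip, from 1.02 to 0.24, while most of the fold changes move little.

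Counted over the 10 genes, the fit without a block called none in any comparison (adjusted p under 0.05 and a change over 1.5-fold), as it called 0% of all 16229 genes. At an unadjusted p under 0.05 it had none of the 7 genes not picked on a measured value after Chd8 siRNA (3.83% of all genes) or after Tsc2 siRNA (2.59%), and 2 of the 10 between the knockdowns (Col18a1 and Mmp9; 3.1%). With the block, the same unadjusted rule held 3 of these 7 after Chd8 siRNA (Mmp9, Mmp12 and Mmp13; 12.9% of all genes), 4 after Tsc2 siRNA (Mmp9, Mmp12, Mmp13 and Mmp14; 10.7%) and 5 of the 10 between the knockdowns (Col18a1, Mmp9, Mmp12, Mmp14 and Timp2; 10.8%). DESeq2 without the block also called 0 of the 10 in each comparison (0.0555%, 0.0308% and 0.0308% of all genes), as did limma-voom (0% of all genes in each). With the block, edgeR called lower none of the 7 genes not picked on a measured value after Chd8 siRNA (0.283% of all genes were called lower) and 1 of the 7, Mmp12, after Tsc2 siRNA (0.197% of all genes). The picked genes A2m and Cemip were past the threshold in both knockdowns and Col18a1 after Tsc2 siRNA, which is a description of picked comparisons from which nothing is read. They bring the counts over the 10 genes to 2 and 4. The blocked fit called none of the 10 higher in either knockdown. In either direction it called 0.53% of all genes after Chd8 siRNA, 0.388% after Tsc2 siRNA and 0.222% between the knockdowns, where Col18a1 was the one called, higher with Chd8 siRNA. That comparison shares the Tsc2 libraries on which Col18a1 was picked. It was called together with Mmp9 when library 1 of either group was left out, but not when library 2 or 3 was. DESeq2 with the block called, picked comparisons included, 1 (Cemip; 0.869% of all genes), 4 (the same genes as edgeR; 0.721%) and 2 (Col18a1 and Mmp9; 0.616%).

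Values below control at all 3 replicate numbers were found for 5 of the 10 genes after Chd8 siRNA (Mmp12, Mmp13, A2m, Cemip and Adam17; 18.3% of all genes) and for 7 after Tsc2 siRNA (these and Mmp9 and Col18a1; 16.4% of all genes). Of the 7 genes not picked on a measured value, these were 3 after Chd8 siRNA and 4 after Tsc2 siRNA. Groups that did not overlap at all were found for none of the 10 after Chd8 siRNA (9.07% of all genes), for Mmp9 and Col18a1 after Tsc2 siRNA (8.13%) and for none between the knockdowns (8.41%). The knockdowns share the 3 control libraries, so the recurrence of genes is not a separate observation.

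Compared per length, in transcripts per 1000000 (TPM) computed here from the estimated counts and transcript lengths, Mmp13 was at 1416 ± 297 in control microglia (mean ± SD, n = 3). Mmp12 followed at 91.7 ± 54.1 and Mmp14 at 64.6 ± 22.7, and the ranges of these last 2 genes overlapped. Adam17 was at 26.2 ± 3.75 and Timp2 at 14.3 ± 1.62, each apart from its neighbours. Col18a1 at 5.03 ± 1.58, Mmp9 at 2.92 ± 0.418, Cemip at 2.32 ± 1.79, A2m at 0.988 ± 0.872 and Timp1 at 0.716 ± 0.552 each overlapped the next in this order. The collagenase gene Mmp13 thus exceeded both TIMP genes in transcript level.

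The 10 genes differed in how much of their variance went with the replicate number. On log2 CPM over the 9 libraries, the replicate number held 90.5% of the variance of Mmp14, 90.0% for Mmp12, 80.8% for Cemip, 79.2% for Adam17, 76.1% for Timp1 and 65.7% for Mmp13. It held 54.7% for A2m, 32.9% for Col18a1, 22.5% for Mmp9 and 5.19% for Timp2. The siRNA held a larger share than the number only for Col18a1 (59.2%), Mmp9 (52.5%) and Timp2 (45.7%). For Timp2 a large part of the variance lay with neither. The shares of A2m, Cemip and Col18a1 hold the values that picked these genes, and nothing is read from them. Shares over all genes are not given here, so these values are descriptions. Whether a number marks a brain, a culture day or another step is not stated.

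Markers of other cells are given beside A2m and Cemip. The summed level of 8 astrocyte markers was 13.8, 23.0 and 108 CPM in control libraries, 12.6, 23.7 and 47.9 CPM after Chd8 siRNA, and 11.1, 27.6 and 51.4 CPM after Tsc2 siRNA. The 7 fibroblast markers summed to 9.01, 24.1 and 58.9 CPM in control libraries, 6.60, 12.2 and 20.3 CPM after Chd8 siRNA, and 5.12, 10.7 and 33.7 CPM after Tsc2 siRNA. Both sums were highest in control library 3, and in every group the library numbered 1 was the lowest and that numbered 3 the highest, as for Cemip. The fibroblast sum was below control at every number in both knockdowns. The astrocyte sum was below control at numbers 1 and 3 and above it at number 2 in both knockdowns.

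Within these lists the markers differed. Of 7 astrocyte markers tested, the blocked log2 fold changes after Chd8 siRNA had a median of -0.32 and ran from -1.51 for Aqp4 and -1.24 for Gfap to 0.03 for Slc1a3 and 0.09 for Slc1a2, and after Tsc2 siRNA the median was -0.48, with Gja1 at 0.07. Of 4 fibroblast markers tested, the median was -0.90 after Chd8 siRNA and -0.87 after Tsc2 siRNA, with Col3a1 at -0.71 and 0.12. Of these 11 genes only Col1a1 was called, after Chd8 siRNA (-1.31, adjusted p = 0.0216, edgeR with the block). Dcn and Lum stayed at 0.50 CPM or less, and Aqp4 was at 0 in all libraries numbered 1.

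Neuronal markers summed to 4.56 to 19.2 CPM in control libraries, 2.91 to 12.8 CPM after Chd8 siRNA and 3.76 to 5.83 CPM after Tsc2 siRNA. Endothelial markers summed to means of 59.6, 61.6 and 68.6 CPM and oligodendrocyte lineage markers to 23.7, 24.5 and 20.2 CPM in control, Chd8 and Tsc2 libraries. The 10 microglial markers summed to 1834 to 2506 CPM in control libraries, 2042 to 2688 CPM after Chd8 siRNA and 2328 to 2572 CPM after Tsc2 siRNA. The part of these other cells in the values of A2m, Cemip, Mmp12 and Col18a1 was not tested.

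**Figure D3:**
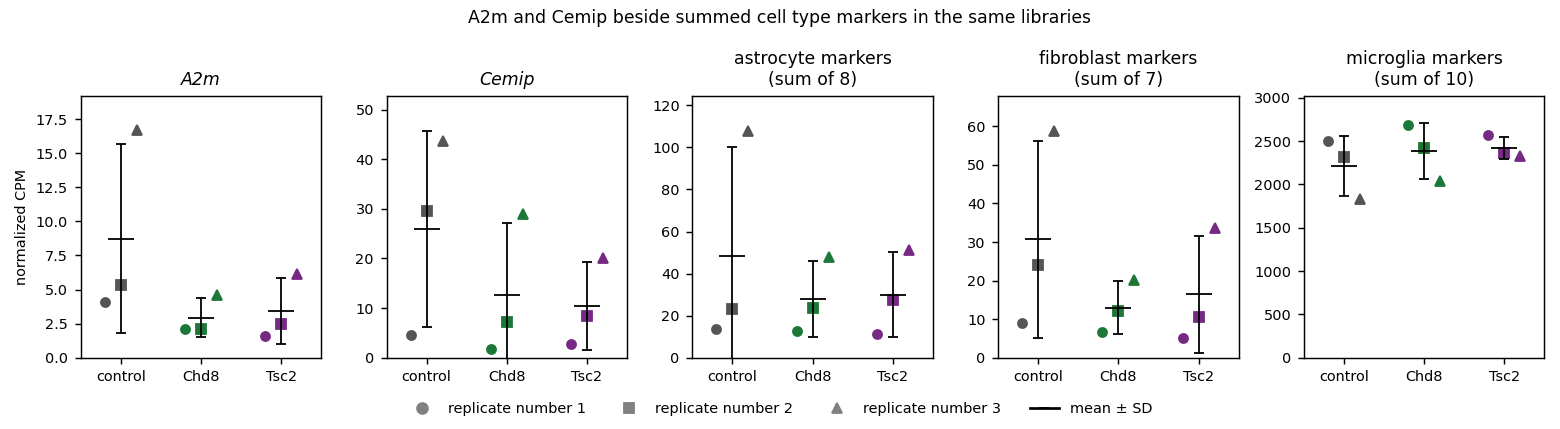
Normalized CPM (linear axes from 0) of A2m and Cemip beside the summed levels of astrocyte, fibroblast and microglia markers in the same 9 libraries; symbols give the replicate number and bars the mean ± SD of 3 libraries, cut at 0. Control library 3 is the highest for A2m at 16.7 CPM, for Cemip at 43.6 CPM, and for the astrocyte sum at 108 CPM.

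The genes most similar to the 3 picked genes in log2 CPM over the 9 libraries included no other member. For A2m they were Gstm1, a glutathione transferase gene (Pearson r = 0.976), Gm37498 (r = 0.970) and Snx25 (r = 0.966). For Cemip they were Uchl1, which encodes a ubiquitin hydrolase abundant in neurons (r = 0.985), Scrn1 (r = 0.982) and Tspan9 (r = 0.977). For Col18a1 they were Lrp1, the endocytic receptor of alpha-2-macroglobulin (r = 0.972), Gusb, the lysosomal glucuronidase gene (r = 0.947), and Tgfb2 (r = 0.943). These correlations are the highest of 16229 genes, share the same 9 libraries and replicate numbers, and only describe them.

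Beyond the 10 genes, 127 genes of 9 protease and matrix lists were examined, of which 103 passed the count filter. Without the block, edgeR called 0 of the 103 in either knockdown; at an unadjusted p under 0.05 there were 2 of the 103 after Chd8 siRNA (3.83% of all genes) and 0 after Tsc2 siRNA (2.59% of all genes). With the block it called 0 after Chd8 siRNA (0.53% of all genes) and 3 after Tsc2 siRNA (0.388% of all genes), and at an unadjusted p under 0.05 there were 20 of the 103 (12.9% of all genes) and 24 of the 103 (10.7% of all genes). The 3 were Mmp25, a membrane-anchored metalloproteinase, which rose by a blocked log2 fold change of 0.64 (SE 0.13, adjusted p = 0.0316), and the basement membrane genes Hspg2, for perlecan, at -0.82 (SE 0.13, adjusted p = 0.0104), and Sparc, at -0.70 (SE 0.14, adjusted p = 0.0343, edgeR).

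These 3 genes also varied strongly with the number. Mmp25 was at 66.9, 25.0 and 19.1 CPM in control libraries and 86.2, 38.1 and 36.7 CPM after Tsc2 siRNA. Hspg2 was at 6.52, 19.6 and 64.4 CPM in control libraries and 3.97, 11.1 and 34.9 CPM after Tsc2 siRNA. Sparc was at 3.24, 29.6 and 93.8 CPM in control libraries and 2.73, 19.6 and 46.1 CPM after Tsc2 siRNA. Within each group Hspg2 and Sparc had the same order of libraries as the astrocyte and fibroblast sums, and the part of such cells in their values was not tested. When single libraries were left out of the blocked fit, Hspg2 and Sparc stayed called without control library 1 or Tsc2 library 1, and Mmp25 only without Tsc2 library 1. Without control library 2 or 3 or Tsc2 library 2 or 3, the adjusted p was 0.0737, 0.174, 0.0821 and 0.0987 for Hspg2, 0.161, 0.464, 0.138 and 0.408 for Sparc, and 0.117, 0.285, 0.168 and 0.227 for Mmp25 (edgeR). Without control library 1, that of Mmp25 was 0.0696. Lamc1 of the same list as Hspg2 was called when control library 2 was left out.

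Among the lists, the basement membrane genes had the lowest median. Of 20 tested, 19 had a negative log2 fold change after Tsc2 siRNA without the block (median -0.57) and 17 after Chd8 siRNA (median -0.23), where the medians over all genes were -0.02 and -0.02. With the block, 17 of 20 were negative after Tsc2 siRNA (median -0.49). Of all 16229 genes tested, 8502 were negative after Tsc2 siRNA and 8476 after Chd8 siRNA without the block. With it, 8384 were negative after Tsc2 siRNA. The counts of negative genes in the lists below are to be read beside these. The fibroblast markers had a mean sum of 30.7 CPM in control libraries, 13.0 CPM after Chd8 siRNA and 16.5 CPM after Tsc2 siRNA, and their part in the values of this list was not tested. The 2 genes with the lowest p in this list were Lamc1 (log2 fold change -0.54, SE 0.26) and Col4a6 (-1.32, SE 0.87) after Tsc2 siRNA, and Col4a4 and Lamb2 (-0.70, SE 0.69) after Chd8 siRNA. Col4a4 had between 0 and 25 counts in a library. Without the block, none of Lamc1, Col4a6, Col4a4 and Lamb2 passed, with adjusted p-values of 1.00 (edgeR). With it, Lamc1 was at -0.49 (SE 0.11, adjusted p = 0.0634, edgeR) after Tsc2 siRNA. Lamb2 was at -0.56 (SE 0.19, adjusted p = 0.207, edgeR) after Chd8 siRNA, and none of the 4 passed with the block either.

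Of 11 other metalloproteinases tested, 6 were negative after Chd8 siRNA (median -0.06) and 7 after Tsc2 siRNA (median -0.23). Mmp3, stromelysin 1, was at 7.96, 4.19 and 20.9 CPM in control libraries and 2.86, 3.41 and 9.54 CPM after Tsc2 siRNA, with a blocked log2 fold change of -0.99 (SE 0.22, adjusted p = 0.0639, edgeR). Mmp8 had 48 counts or fewer in each library and none in Tsc2 library 3. Without the block, Mmp28 and Mmp19 were the lowest in p after Chd8 siRNA, with log2 fold changes of 0.73 (SE 0.78) and -0.31 (SE 0.39). Mmp28 stayed at 1.85 CPM or less in all libraries.

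Of 9 ADAM genes, 4 were negative after Chd8 siRNA and 7 after Tsc2 siRNA. Adam8, a sheddase of leukocytes, had a blocked log2 fold change of 0.31 (SE 0.10, adjusted p = 0.160, edgeR) after Chd8 siRNA, and Adam10, the close relative of Adam17, one of -0.21 (SE 0.10, adjusted p = 0.477) after Tsc2 siRNA. Adam23 was at 3.35 CPM or less in all libraries. Of 14 ADAMTS genes, 7 were negative after Chd8 siRNA (median 0.01) and 10 after Tsc2 siRNA (median -0.44). Adamts2, a procollagen peptidase, had 9, 15 and 35 counts in control libraries and 2 in each Chd8 library, so the groups did not overlap. Its log2 fold change, which rests on these few counts, was -3.29 (SE 0.82) without the block and -3.21 (SE 0.99, adjusted p = 0.154, edgeR) with it, and it did not pass in either fit. Adamts5, an aggrecanase, had a log2 fold change of -0.65 (SE 0.38) after Chd8 siRNA. Adamts17 and Adamts10 had values of -1.03 (SE 0.49) and -0.67 (SE 0.34) after Tsc2 siRNA, and Adamts17 stayed at 1.72 CPM or less.

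Of 11 further inhibitors, 6 were negative after Chd8 siRNA and 7 after Tsc2 siRNA, with medians of -0.03 and -0.02. Serpinb6a had a log2 fold change of 0.39 (SE 0.14) after Chd8 siRNA. Cst7, which encodes cystatin F, had one of 0.34 (SE 0.16) and Serping1 one of -1.06 (SE 0.64) after Tsc2 siRNA. Of 11 plasminogen and cathepsin genes, 2 were negative after Chd8 siRNA and 7 after Tsc2 siRNA. Ctsl and Ctsd had log2 fold changes of 0.25 (SE 0.15) and 0.24 (SE 0.14) after Chd8 siRNA, and Ctss, for the lysosomal protease cathepsin S, one of 0.33 (SE 0.16) after Tsc2 siRNA, whereas Ctsk had 57 counts or fewer in a library. None of these passed in edgeR, with or without the block. The lowest adjusted p-values among them with the block were those of Ctss and Serpinb6a. Ctss was at 0.35 (SE 0.08, adjusted p = 0.0728, edgeR) after Tsc2 siRNA. Serpinb6a was at 0.40 (SE 0.11, adjusted p = 0.0947, edgeR) after Chd8 siRNA.

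Hyaluronan genes, the pathway in which Cemip acts, were negative in 3 of 10 after Chd8 siRNA (median 0.10) and 5 of 10 after Tsc2 siRNA (median -0.07). The log2 fold changes were 0.46 (SE 0.39) for Hyal2 and 0.88 (SE 0.83) for Hapln1 after Chd8 siRNA, and -1.22 (SE 0.66) for Hyal1 and 1.00 (SE 0.64) for Tnfaip6 after Tsc2 siRNA. Of 9 crosslinkers and heparanase, 7 were negative in each knockdown. Lox, lysyl oxidase, had log2 fold changes of -0.58 (SE 0.37) after Chd8 siRNA and -0.39 (SE 0.37) after Tsc2 siRNA, Hpse, heparanase, one of -0.63 (SE 0.29) after Chd8 siRNA and Plod3 one of -0.20 (SE 0.14) after Tsc2 siRNA. Of 8 partners of the 10 genes, Lrp1 had a log2 fold change of -0.39 (SE 0.19) and Itgb1 one of -0.17 (SE 0.17) after Tsc2 siRNA, and Hspa5 and Bsg, an inducer of metalloproteinases, had values of 0.23 (SE 0.14) and 0.14 (SE 0.13) after Chd8 siRNA. None of these passed, with or without the block. The lowest adjusted p-values among them with the block were those of Lrp1 and Lox. Lrp1 was at -0.38 (SE 0.08, adjusted p = 0.0566, edgeR) after Tsc2 siRNA. Lox was at -0.59 (SE 0.15, adjusted p = 0.0785, edgeR) after Chd8 siRNA.

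**Figure D4:**
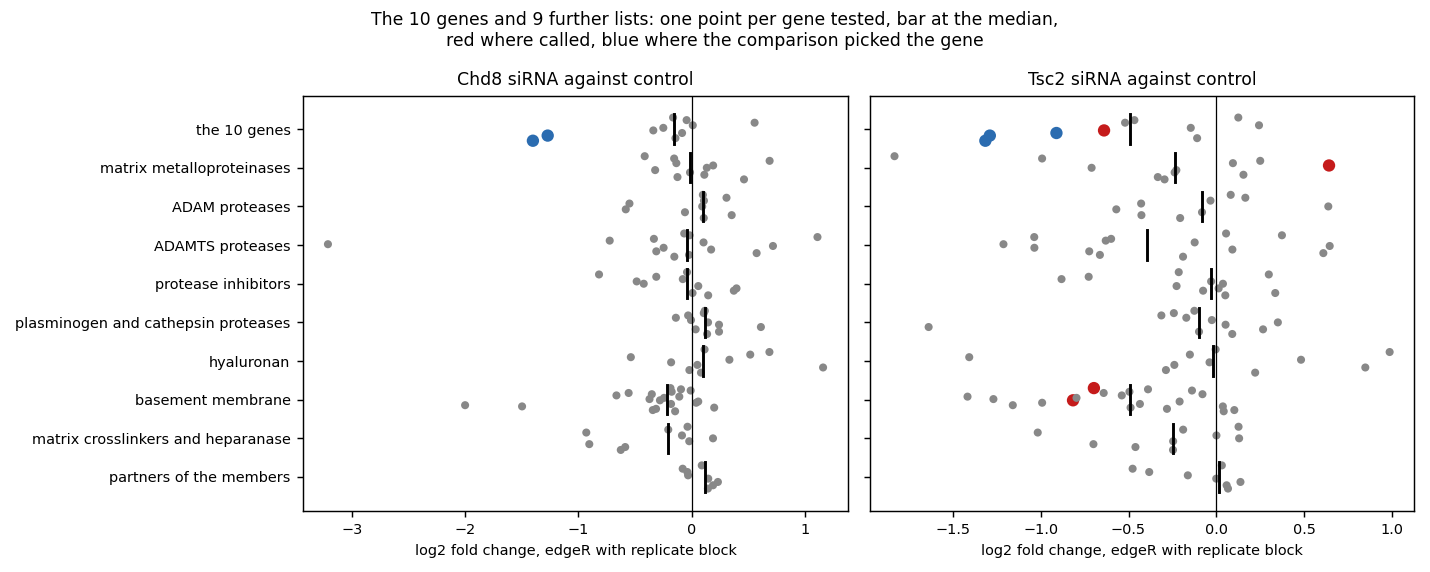
Blocked edgeR log2 fold changes of the 10 genes and of 9 lists of related genes, one point per tested gene, with the median as a black bar, genes past the threshold in red, and genes in the comparison that picked them in blue, with no call shown. After Tsc2 siRNA Mmp12 among the 10 genes, Mmp25 among the metalloproteinases, and Hspg2 and Sparc among the basement membrane genes are red.

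Cemip differed from the other 9 genes in its transcripts. Retained-intron transcripts took 36.5% of Cemip counts over all libraries, and their share was 43.1% ± 22.7 in control, 28.3% ± 16.6 after Chd8 siRNA and 39.8% ± 8.98 after Tsc2 siRNA (SD, n = 3), with 15.1% to 69.4% in single libraries. This share was 11.6% for Mmp14 and 5.59% for Adam17. The coding transcript Cemip-201 was at 1.43, 20.4 and 30.9 CPM in control libraries, 1.51, 5.61 and 15.4 CPM after Chd8 siRNA, and 1.41, 5.82 and 12.4 CPM after Tsc2 siRNA. At number 1 the coding transcript was near the same level with all 3 siRNAs. It had only 38, 45 and 33 estimated counts there, with control, Chd8 and Tsc2 siRNA. At numbers 2 and 3 it was lower in both knockdowns than in control, in values that are part of those that picked Cemip. The shares of 69.4% and 15.1% come from control library 1 and Chd8 library 1, with 124 and 53 Cemip counts. All are salmon estimates from reads that largely fit several transcripts.

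**Figure D5:**
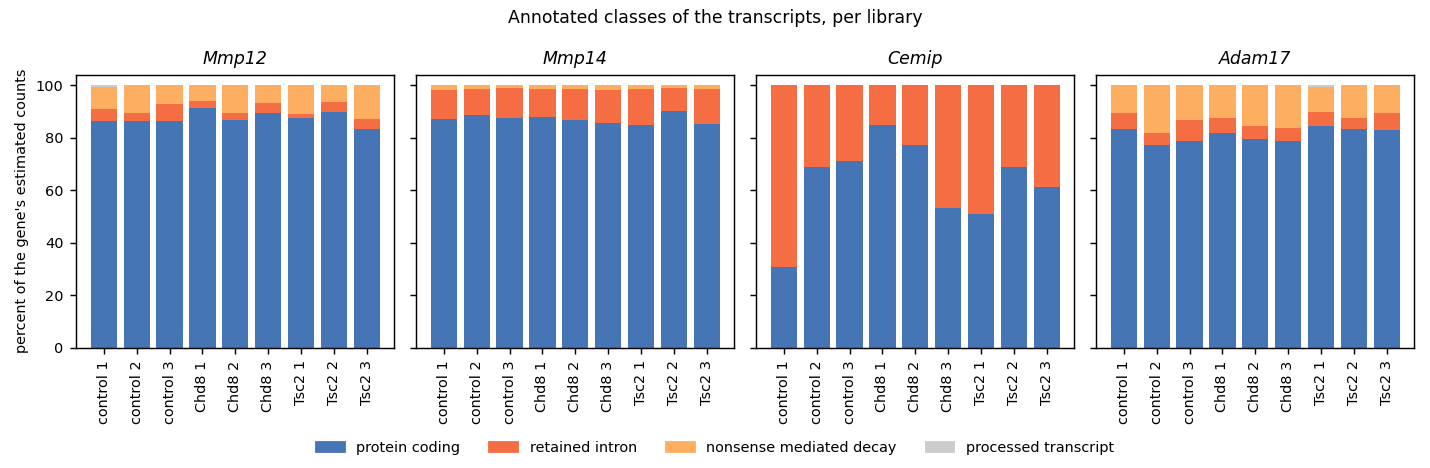
Share of the estimated counts of Mmp12, Mmp14, Cemip and Adam17 in each annotated transcript class, as stacked percentages per library. Retained-intron transcripts take between 15.1% and 69.4% of Cemip counts in single libraries, and 13.6% or less of the counts of the other 3 genes.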

How the data were processed

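The deposited table held estimated counts per transcript, which the authors made with salmon 0.14.1 on mm10 and neither normalized nor pooled; the transcript annotation release is not given in the sources used here. Between 26.8% and 32.1% of values in a library were not whole. Here, 139852 of 140948 transcripts were matched to GENCODE M21 (GRCm38) and summed to 54119 genes; the 1096 unmatched held 0.270% of counts. Sums were rounded, and 16229 genes passed filterByExpr. Libraries were grouped by the siRNA in their titles.

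The main test was edgeR 4.0.16 (quasi-likelihood, TMM, R 4.3.3) on all 9 libraries with siRNA only, as the study's methods name no block, with Benjamini-Hochberg adjustment over all genes; a call needed an adjusted p under 0.05 and a change over 1.5-fold. CPM are counts scaled by TMM to a library of 1000000. Exact permutation tests used log2(CPM + 0.5). Same-numbered libraries deviated together (r = 0.244 to 0.522 over 9 pairs, other pairs -0.382 to 0.0366), so a fit with the replicate number as a block is given beside the main one. The numbers come from the titles, and no source says what they share; p-values measure the spread between these libraries. The code was tested on simulated data.

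Alternatives were DESeq2 1.42.0, limma-voom (limma 3.58.1), other size factors, no filter, 6 libraries only, coding transcripts only and leaving out libraries; leaving out a whole replicate number was chosen after seeing the data. Genes named were the 10 members, the 2 targets, the 2 genes of lowest p per list and knockdown and any called, the 3 most similar genes to A2m, Cemip and Col18a1, and genes whose exons overlap a member; single values of some genes this rule names are not reported here. Marker genes were named from the marker lists after their values were seen. The members and lists were chosen with earlier results of these data known. Promoter sequences and starts are from RefSeq (GRCm38.p6), which matched 8 of 10 genes.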

Additional observations from a re-analysis of the deposited data

Results flagged for a closer look

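Col18a1 differed between the knockdowns. It was higher with Chd8 siRNA than with Tsc2 siRNA by a log2 difference of 0.83 (SE 0.14) in the edgeR fit with the replicate block, past the threshold, and by 0.88 (SE 0.28) without the block, not past it. The 3 libraries of each group were 25.9, 51.2 and 54.1 CPM and 20.6, 25.9 and 24.6 CPM, and all 3 replicate numbers showed this direction. With the block, it was kept in 2 of 6 fits that left out one library. The Tsc2 libraries are those whose values picked Col18a1, so this is a description and not a separate test.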

How the results depend on the processing

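The count of the 10 genes called was 0 in each comparison under TMM and under DESeq2's size factors, no count filter, 6 libraries only, coding transcripts only, DESeq2 and limma-voom. It changed with the replicate block, and counts above 0 include the comparisons that picked A2m, Cemip and Col18a1. After Chd8 siRNA it was 2 with the block, 1 in DESeq2 with the block (A2m had no adjusted p there), 2 without number 1 and 1 without number 3; after Tsc2 siRNA 4, 4, 4 without number 1 and 0 without number 3; between the knockdowns 1, 2, 2 and 0. Leaving out one library gave 0 to 2, 0 to 4 and 0 to 2. List genes called after Tsc2 siRNA were 3 with the block, 4 in DESeq2 with the block, 3 without number 1, 0 without number 3 and 0 to 3 without one library, and after Chd8 siRNA 1 without number 1. The block also took the target Chd8 past the threshold against control and between the knockdowns, and the marker Col1a1 after Chd8 siRNA; over all genes it took the calls from 0 to 86, 63 and 36. It changed no other call among the genes named.

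Signs turned under some alternatives. With the block, Mmp14 after Chd8 siRNA was -0.073 and Col18a1 0.038 without number 1, and Timp1 0.12 without number 3. Between the knockdowns, Timp1 was 0.42 with the block, 0.47 in DESeq2 with the block, 0.68 in limma-voom and 1.03 without number 3, A2m was 0.10 without number 3, and Cemip was -0.0174 in DESeq2 with the block, -0.33 in limma-voom and -0.43 without number 3. Leaving out one library, with and without the block, gave ranges that crossed 0: after Chd8 siRNA -0.75 to 0.094 for Mmp12, -0.38 to 0.33 for Mmp14, -0.90 to 0.50 for Timp1, -0.23 to 0.21 for Col18a1 and -0.96 to 0.032 for Adam23; after Tsc2 siRNA -0.040 to 0.52 for Mmp14, -1.34 to 0.53 for Timp1, -0.24 to 0.045 for Adam17, -0.79 to 0.17 for Adam23, -2.00 to 0.36 for Hspg2 and -1.92 to 0.49 for Sparc; between the knockdowns -0.012 to 0.83 for Mmp12, -0.60 to 0.076 for Mmp14, -0.64 to 1.12 for Timp1, -0.70 to 0.54 for A2m, -1.25 to 1.18 for Cemip and -0.20 to 0.081 for Adam17. The cause was not tested. Hspg2 and Sparc turned only without the block and without control library 3, and stayed negative in all blocked fits. Timp1, Mmp8, Ctsk and Col4a4 had few counts. Hapln1, Tnfaip6, Adamts17 and Mmp28 were also low, at 1.85 CPM or less in all libraries, and Hyal1 was at 0.263 CPM in Tsc2 library 3.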
